A study of Mus musculus with 11 samples.

Results

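The G1 cyclins and the inhibitors of their kinases set whether a cell passes from G1 into DNA replication, and 9 of their genes were followed here through the differentiation of mouse embryonic stem (ES) cells. Members were all probe sets to which the platform annotation gives exactly 1 gene symbol out of Ccnd1, Ccnd2, Ccnd3, Ccne1, Cdkn1a, Cdkn1b, Cdkn2a, Cdkn2b and Cdkn2c. This rule, which used no measured value, found 12 of the 12488 probe sets on the array, for 9 of the 8252 genes that its annotation names singly. Ccnd1, Cdkn1a and Cdkn1b had 2 probe sets each and the other genes 1. Of the 12 probe sets, 11 passed the filter on low values and were tested, and every gene kept at least 1.

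RNA was hybridised to Affymetrix MG_U74Av2 arrays, with 1 array per sample. Undifferentiated cells of the R1 line, which grows over mouse embryonic fibroblasts that serve as feeder cells, were on 3 arrays (replicates 1, 5 and 9). R1 cells differentiated towards nestin-positive progeny for 4+8 days were on 3 arrays (replicates 1, 2 and 3), and those differentiated for 4+11 days on another 3 (replicates 4, 8 and 12). The fibroblasts of the feeder layer alone were on 2 arrays (replicates 6 and 10). All 3 ES cell groups derive from 1 line, and the labels do not say whether feeder cells were removed before RNA was prepared. The labels name separate cultures as the source of the triplicates and say nothing of the kind for the feeder arrays. All p-values use 1 spread pooled over the 4 groups, to which the feeder pair may add technical spread only. Any spread between separate feeder cultures may thus be missing from the p-values against the feeder cells.

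In textbook terms, the D cyclins (Ccnd1, Ccnd2, Ccnd3) link growth signals to the cycle by activating CDK4 and CDK6, and cyclin E (Ccne1) activates CDK2 at the border of S phase. Cdkn1a (p21) and Cdkn1b (p27) chiefly inhibit the CDK2 complexes, and Cdkn2a (p16), Cdkn2b (p15) and Cdkn2c (p18) bind and inhibit CDK4 and CDK6. The kinases phosphorylate the retinoblastoma protein, which releases E2F factors to switch on S phase genes. Mouse ES cells are known for a short G1 phase, with cyclin E high and the inhibitors low, and for a lengthening of G1 as they differentiate.

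The differentiated groups were checked against markers of the cells they could hold. Summed over the 10 pluripotency markers, intensity was 17604 to 19737 in undifferentiated cells, 329 to 1805 after 4+8 days and 345 to 2284 after 4+11 days, against 191 and 212 in feeder cells. Nes, which encodes nestin, measured 233, 417 and 195 after 4+8 days and 397, 599 and 385 after 4+11 days. It measured 216, 196 and 165 in undifferentiated cells and 573 and 351 in feeder cells. Its log2 difference from undifferentiated cells was 1.20 ± 0.31 after 4+11 days (adjusted p = 0.0251) and 0.46 ± 0.31 after 4+8 days (adjusted p = 0.268). From feeder cells it differed after 4+11 days by 0.01 ± 0.35 (adjusted p = 0.996). The sum of the 10 heart muscle markers was 8143 to 18585 after 4+8 days and 1466 to 4579 after 4+11 days. It was 417 to 464 in undifferentiated cells and 895 to 1839 in feeder cells, which overlapped the 4+11 day range. Of these 10 markers, 9 were called higher in 4+8 day and 4 in 4+11 day cells than in feeder cells. Of 8 tested neural progenitor markers, 3 rose and 0 fell after 4+11 days, and 1 rose and 1 fell after 4+8 days. Between 4+11 day and feeder cells 0 of these 8 were called. The part of feeder RNA in these markers was not tested. Markers of several cell types were thus present in both differentiated groups, and fewer cells of a type and less RNA per cell cannot be told apart.

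The values below are intensities quantile-normalised over the 11 arrays, and a difference is given as log2(intensity + 10) with its standard error. A call is an adjusted p below 0.05 from 1 limma fit over 8940 probe sets unless an alternative fit is named, and every adjusted p is from limma. Scan session and chip lot differed between the 4+8 day arrays and all others, and neither can be told apart from the stage in a comparison with 4+8 day cells. Their replicates correlated at 0.810 to 0.884 (Spearman), against 0.957 to 0.967 in undifferentiated cells. The other 8 arrays shared a session and a lot and were washed in 3 fluidics runs. Comparisons that share the undifferentiated, the feeder or a differentiated group are not independent of each other.

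The stretches of 250 bases that end just before the transcript start are shown for the 5 members with a call in at least 1 comparison (RefSeq, GRCm38.p6, 5′ to 3′ on the gene's strand). Where a gene had 2 listed starts, the one with more marked motifs is shown. Capitals mark GC boxes (GGGCGG on either strand) and the cAMP response element (TGACGTCA).
Ccne1, chr7:38107491-38107740, minus strand: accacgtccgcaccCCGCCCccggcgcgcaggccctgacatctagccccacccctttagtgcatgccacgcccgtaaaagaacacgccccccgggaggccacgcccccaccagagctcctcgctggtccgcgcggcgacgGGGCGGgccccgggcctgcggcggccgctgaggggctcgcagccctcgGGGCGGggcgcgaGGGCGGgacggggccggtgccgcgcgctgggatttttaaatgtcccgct
Ccnd3, chr17:47504801-47505050, plus strand: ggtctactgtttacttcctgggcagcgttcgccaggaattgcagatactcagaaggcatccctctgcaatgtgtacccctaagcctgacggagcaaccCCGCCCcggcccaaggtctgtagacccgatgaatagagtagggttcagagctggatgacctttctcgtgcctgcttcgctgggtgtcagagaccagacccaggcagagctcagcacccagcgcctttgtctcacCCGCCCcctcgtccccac
Cdkn1a, chr17:29093519-29093768, plus strand: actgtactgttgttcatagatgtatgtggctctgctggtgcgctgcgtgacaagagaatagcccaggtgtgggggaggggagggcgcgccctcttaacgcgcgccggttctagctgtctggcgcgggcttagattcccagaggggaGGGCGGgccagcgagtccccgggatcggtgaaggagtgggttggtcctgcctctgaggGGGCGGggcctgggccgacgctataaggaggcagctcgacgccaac
Cdkn2b, chr4:89311033-89311282, minus strand: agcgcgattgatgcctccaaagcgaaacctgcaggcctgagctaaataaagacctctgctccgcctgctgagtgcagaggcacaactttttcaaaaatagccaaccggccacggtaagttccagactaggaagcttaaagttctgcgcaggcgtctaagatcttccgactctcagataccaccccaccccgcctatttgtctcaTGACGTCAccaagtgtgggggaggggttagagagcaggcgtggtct
Cdkn2c, chr4:109666757-109667006, minus strand: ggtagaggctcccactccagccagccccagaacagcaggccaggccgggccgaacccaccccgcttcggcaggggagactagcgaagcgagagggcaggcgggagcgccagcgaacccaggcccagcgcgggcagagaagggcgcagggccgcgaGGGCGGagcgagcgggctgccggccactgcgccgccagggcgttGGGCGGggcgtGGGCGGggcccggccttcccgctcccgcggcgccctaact

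RefSeq windows were found for 7 of the 9 genes, 11 windows in all, with no entry for Ccnd1 and Ccnd2. The GC box, read by Sp1-type factors, was in 7 of the 11 windows, against 32.7% of all 32851 windows in the table. The Ccne1 stretch held 4 of these boxes. TGACGTCA lay 46 to 39 bases before the start of Cdkn2b and in no other member window, against 1.55% of all windows. An E2F spelling (TTTCCCGC, TTTCGCGC, TTTGCCGC or TTTGGCGC on either strand) was in 1 member window, that of Cdkn2a, against 1.86% of all windows. CCAAT was in 2 member windows (33.8% of all windows), and neither TATAAA (12.4%) nor CACGTG (6.02%) was in any. Cdkn2a and Cdkn2b are neighbours on chromosome 4, with 11669 bases between them.

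Set against undifferentiated cells, the 4+8 day cells had more Ccnd3, Cdkn1a and Cdkn2c RNA and less Ccne1 RNA. Of the 11 tested member probe sets 3 rose and 1 fell, where 37.2% of all probe sets tested were called in this comparison (17.3% higher, 19.9% lower). With the values left as deposited, 5 member probe sets rose and 0 fell. The median log2 difference of the members was 0.39, beside 0.02 for all probe sets tested. For 4 of the 12 member probe sets the values of both groups did not overlap, against 48.2% of all tested. Here and below, the 12 include the untested Cdkn1b probe set, whose groups overlapped in every comparison. The count of 4 calls became 2 when undifferentiated replicate 1 or 9 was left out.

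After 4+11 days, Cdkn2b and Cdkn1a had risen and Ccne1 had fallen relative to undifferentiated cells. That made 2 probe sets higher and 1 lower out of 11, where 19% of all were called (9.38% higher, 9.61% lower). As deposited, the counts were 5 and 1. The member median was 0.57, beside −0.03 over all probe sets, and 8 of the 12 member probe sets had groups that did not overlap, against 46.3% of all. Refitted without the 4+8 day arrays, an alternative chosen after the data were seen, 5 rose and 1 fell. The count of 3 calls became 1 when undifferentiated replicate 9, 4+11 day replicate 4 or 4+11 day replicate 12 was left out.

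Between the differentiated stages, 4+11 day cells had more Cdkn2b and less Ccnd3 and Ccne1 than 4+8 day cells (1 higher and 2 lower of 11, against 23.2% of all called: 12.3% higher and 10.9% lower). As deposited, 1 was higher and 4 were lower. The member median was 0.28, beside 0.05 over all probe sets. Groups did not overlap for 6 of 12 member probe sets, against 35.2% of all. The count of 3 calls became 5 without 4+8 day replicate 2 and 1 without 4+11 day replicate 12.

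**Figure D1:**
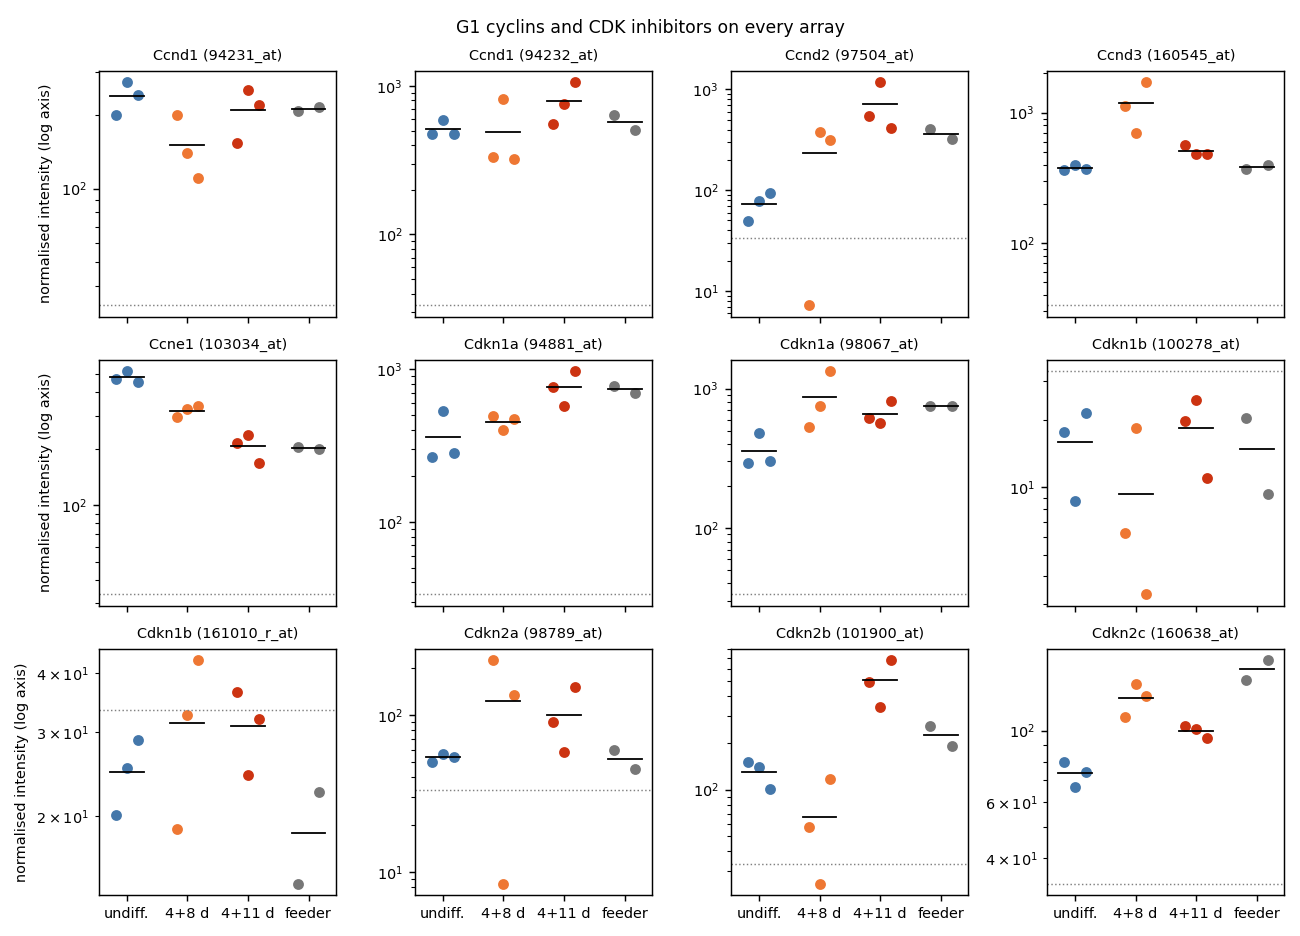
Quantile-normalised intensity (log axis) of each member probe set on every array, for undifferentiated cells (n = 3), 4+8 day cells (n = 3), 4+11 day cells (n = 3) and feeder fibroblasts (n = 2). Points are arrays, bars are group means and the dotted line is the filter at 33.4. Ccne1 is highest on the 3 undifferentiated arrays (453 to 519), and Cdkn2b is highest on the 3 arrays of 4+11 day cells (339 to 684).

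Among the D cyclins, Ccnd3 alone passed the test in any comparison. Its probe set 160545_at (gene at chr17:47505051-47599689) measured 364, 394 and 368 in undifferentiated cells, 1133, 704 and 1722 after 4+8 days and 567, 483 and 485 after 4+11 days, against 371 and 397 in feeder cells. Every 4+8 day array lay above all the others, and the 4+11 day arrays lay above the undifferentiated and feeder ones. Ccnd3 rose 2.91-fold in 4+8 day cells over undifferentiated cells (log2 1.54 ± 0.28, adjusted p = 0.00228), a call that held in all 14 alternatives run. It fell by 1.11 ± 0.28 in 4+11 day cells relative to 4+8 day cells (adjusted p = 0.0198). It did not pass once 4+11 day replicate 12 was left out (adjusted p = 0.0566), nor without the 2 arrays of another wash protocol (0.0852) or with the arrays of these stages fitted alone (0.095). The difference of 0.43 ± 0.28 between 4+11 day and undifferentiated cells did not pass (adjusted p = 0.313), though these groups did not overlap. It was 0.57 and 0.38 within fluidics runs 1 and 2, and passed with array quality weights (0.00423) and without the 4+8 day arrays (0.0418).

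Markers of other cells moved beside Ccnd3. All 10 heart muscle markers rose in 4+8 day over undifferentiated cells, and 8 of them fell in 4+11 day relative to 4+8 day cells. Their sum was 18585, 8143 and 10886 on the 4+8 day arrays in replicate order. The blood and endothelium list rose in 7 of its 9 genes after 4+8 days, with a sum of 1332, 585 and 2624 on those arrays in replicate order, against 210 to 247 in undifferentiated cells. The replicate with most Ccnd3 had the highest sum of this list and the one with least Ccnd3 the lowest. The fibroblast (28348, 13483 and 46749), macrophage (2682, 173 and 5962) and endoderm (2720, 1502 and 5241) sums had this order too. Apoe (1727, 738 and 4381) was the largest part of the endoderm sum. Of the other tested genes in that list, Gata6 (514, 223 and 555) shared the order and the rest did not. The heart muscle sum was also lowest in replicate 2 but highest in replicate 1. Of all genes outside the members, the 3 whose pattern over the 11 arrays was most like that of Ccnd3 were Hba-a1 (r = 0.977), Hbb-bh1 (r = 0.962) and Cryaa (r = 0.953), the first 2 of them globin genes. On the 4+11 day arrays the sum of the blood and endothelium list was 348 to 1210, with 3 of 9 genes higher than in undifferentiated cells. The part of these cells in the Ccnd3 result was not tested.

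Ccnd2 (97504_at, gene at chr6:127125162-127152188) had the widest range of the members as a ratio of highest to lowest array. It measured 49.5, 78.6 and 93.0 in undifferentiated cells, 7.18, 381 and 315 after 4+8 days, and 540.0, 1190.0 and 418 after 4+11 days, against 403 and 321 in feeder cells. Replicate 1 of the 4+8 day cells lay below the filter, and the 4+11 day arrays were above every other array. In 4+11 day cells the fit gave 8.04-fold more Ccnd2 than in undifferentiated cells (log2 3.01 ± 0.98), which did not pass at an adjusted p of 0.0579. With the fluidics run as a block the difference was 3.24 (adjusted p = 0.00343), and runs 1 and 2 on their own gave 2.92 and 3.54. In all, it passed in 7 of 16 alternatives, among them the fit without the 4+8 day arrays (adjusted p = 0.00152).

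Low Ccnd2 in undifferentiated cells was also seen against the feeder cells, at −2.18 ± 1.10 (adjusted p = 0.198), with groups that did not overlap. With the run as a block this value was −2.11 and passed (adjusted p = 0.00681), and within runs 1 and 2 it was −2.51 and −1.69. After 4+8 days the difference from undifferentiated cells was 0.67 (adjusted p = 0.619) with replicate 1 and 2.13 (adjusted p = 0.00553) without it. Between 4+11 and 4+8 days it was 2.34 (adjusted p = 0.112), and without 4+8 day replicate 2 it was 3.13 (adjusted p = 0.0471).

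Both Ccnd1 probe sets were well above the filter on all 11 arrays and neither was called in any of the 6 comparisons. The 94231_at probe set (gene at chr7:144929931-144939831) measured 199, 273 and 241 in undifferentiated cells, 201, 140.3 and 110.0 after 4+8 days and 154, 252 and 220.3 after 4+11 days, against 208 and 214 in feeder cells. At 94232_at the values were 474, 593 and 471, then 332, 810.0 and 322, then 553, 748 and 1063, against 632 and 505 in feeder cells, in the same order of groups. The groups overlapped at both, except that 94231_at was lower on all 4+8 day arrays than on the feeder arrays. The log2 difference of 4+8 day from undifferentiated cells was −0.66 ± 0.25 (adjusted p = 0.0666) at 94231_at and −0.20 ± 0.36 (adjusted p = 0.691) at 94232_at.

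The pair of Ccnd1 probe sets correlated at r = 0.32 over the 11 arrays, so they gave little common pattern. Leaving out 4+8 day replicate 1 brought 94231_at to −0.87 (adjusted p = 0.0238) in 4+8 day against undifferentiated cells. Without 4+8 day replicate 2, 94232_at reached 1.19 (adjusted p = 0.0135) in 4+11 day against 4+8 day cells.

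Ccne1 fell at each stage of differentiation and was the member with most calls, 5 in 6 comparisons. Its probe set 103034_at (gene at chr7:38097984-38107490) measured 473, 519 and 453 in undifferentiated cells, 294, 324 and 337 after 4+8 days and 213, 236 and 168 after 4+11 days, against 203 and 199.5 in feeder cells. The ES cell groups did not overlap and kept this order, while the 4+11 day values lay on both sides of the feeder ones. In 4+11 day cells Ccne1 was 2.30-fold lower than in undifferentiated cells (log2 −1.20 ± 0.18, adjusted p = 0.00198). This held in all 16 alternatives. Blocking on the fluidics run gave −1.06, and the values inside runs 1 and 2 were −1.18 and −0.91. Undifferentiated cells had 2.32-fold more Ccne1 than feeder cells (log2 1.22 ± 0.20, adjusted p = 0.00295). Within runs 1 and 2 that value was 1.25 and 1.14.

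The steps on either side of 4+8 days were smaller. Ccne1 fell by 0.58 ± 0.18 in 4+8 day cells relative to undifferentiated cells (adjusted p = 0.0256), and by 0.62 ± 0.18 in 4+11 day cells relative to 4+8 day cells (adjusted p = 0.0307). The first call held in 7 of 14 alternatives. Its adjusted p was 0.0688 without undifferentiated replicate 1, 0.0824 without replicate 5, 0.0541 without replicate 9 and 0.0567 without 4+8 day replicate 1. As deposited, before the arrays were brought to 1 scale, it was 0.15 (adjusted p = 0.64), while the median of all probe sets stood at 0.97. The second held in 8 of 14, and its adjusted p was 0.0515 without 4+8 day replicate 3, 0.0785 without 4+11 day replicate 4 and 0.0997 without 4+11 day replicate 12.

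Pluripotency markers fell with Ccne1, all 10 of them in 4+8 day cells and 9 in 4+11 day cells. Their sums after 4+8 days (924, 1805 and 329) and after 4+11 days (625, 2284 and 345) overlapped, and the Ccne1 values of these stages did not. Sox2, also a neural progenitor marker, made up most of the highest sums (1342 in 4+8 day replicate 2, 2106 in 4+11 day replicate 8). Between these stages 2 of the 10 markers were called lower after 4+11 days and 0 higher. The 2 were Pou5f1 (−0.95, adjusted p = 0.0164) and Fgf4 (−1.56, adjusted p = 0.00405). The genes most like Ccne1 over the 11 arrays were Ulk1 (r = 0.971), a kinase of autophagy, Nodal (r = 0.956), a signal of early embryonic cells, and Mrpl38 (r = 0.950), of the mitochondrial ribosome.

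**Figure D2:**
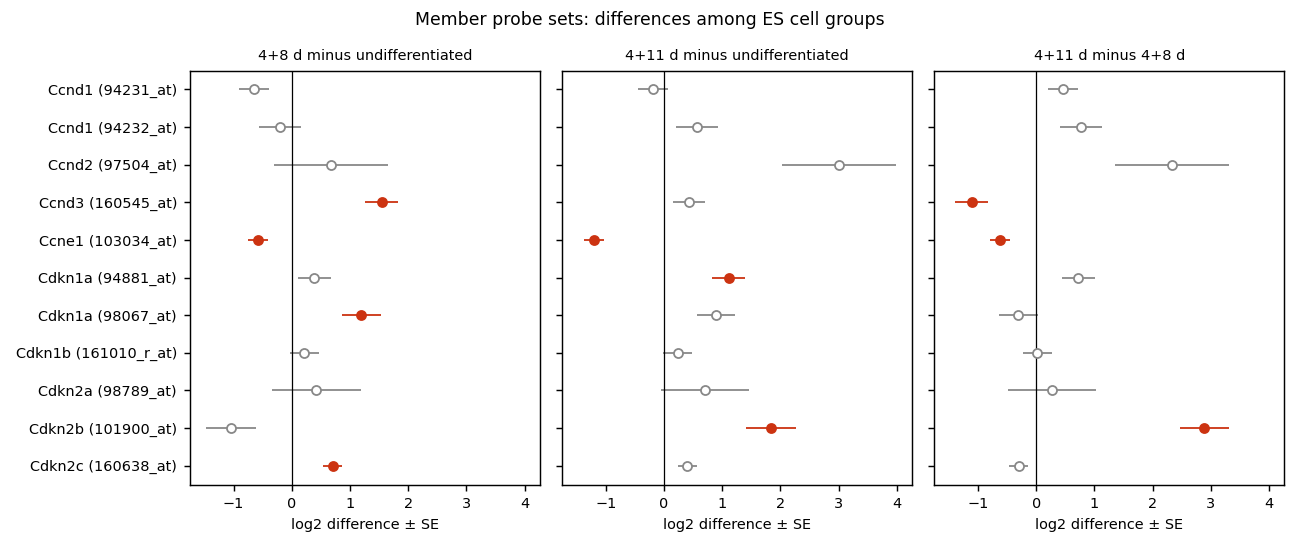
Log2 difference (± SE) of each tested member probe set in 4+8 day minus undifferentiated cells, 4+11 day minus undifferentiated cells and 4+11 day minus 4+8 day cells. Filled red points have an adjusted p below 0.05 and open points do not. Ccne1 lies left of 0 in all 3 panels, Ccnd3 changes side between the first and the third, and Cdkn2b reaches 2.89 in the third.

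Turning to the inhibitors of the CIP/KIP family, Cdkn1a rose with differentiation at both of its probe sets, one called after 4+11 days and the other after 4+8 days. The 94881_at probe set (gene at chr17:29090979-29100722) measured 268, 535 and 284 in undifferentiated cells, 491, 398 and 474 after 4+8 days and 762, 576 and 979 after 4+11 days, against 779 and 700.1 in feeder cells. It rose by 1.11 ± 0.29 in 4+11 day cells over undifferentiated cells (adjusted p = 0.0237), with no overlap between the groups. Undifferentiated cells had less of it than feeder cells, at −1.08 ± 0.32 (adjusted p = 0.039). In 4+8 day cells its difference from undifferentiated cells was 0.39 ± 0.29 (adjusted p = 0.311).

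The 98067_at probe set measured 292, 476 and 303 in undifferentiated cells, 532, 747 and 1339 after 4+8 days and 613, 562 and 813 after 4+11 days, against 748 and 747 in feeder cells. Here the 4+8 day cells exceeded the undifferentiated ones, by 1.20 ± 0.33 (adjusted p = 0.0174). After 4+11 days the difference was 0.89 ± 0.33 (adjusted p = 0.0863) and that of undifferentiated minus feeder cells −1.08 ± 0.37 (adjusted p = 0.0635), both with groups that did not overlap. The pair correlated at r = 0.61 over the 11 arrays.

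The Cdkn1a calls rested on single arrays in part. The 4+11 day call at 94881_at held in 10 of 16 alternatives. Blocking on the fluidics run gave 0.98 (adjusted p = 0.0573), and the values inside runs 1 and 2 were 0.99 and 1.0. Its adjusted p was 0.0966 without undifferentiated replicate 1, 0.0949 without replicate 9, 0.0779 without 4+11 day replicate 4 and 0.0834 without 4+11 day replicate 12. The call against feeder cells was −1.02 and −1.27 within runs 1 and 2. The adjusted p was then 0.122 without undifferentiated replicate 1, 0.12 without replicate 9, 0.204 without feeder replicate 6 and 0.139 without feeder replicate 10. At 98067_at the 4+8 day call held in 10 of 14, and its adjusted p was 0.0651 and 0.0636 without undifferentiated replicate 1 and 9. Without the 4+8 day arrays, the difference after 4+11 days there passed (0.0206).

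On the undifferentiated arrays, Cdkn1a was highest in replicate 5 at both probe sets. The sum of the 14 fibroblast markers there was 17847, against 15842 in replicate 1 and 12156 in replicate 9. The single markers did not share this order. Mmp3 measured 1121, 2487 and 1015 in replicates 1, 5 and 9, against 213 and 361 in feeder cells. Cxcl1 measured 332, 2210 and 1857 in the same order. Col1a1 (3616, 3213 and 2106) and Col1a2 (2349, 1776 and 1362) were highest in replicate 1. On the 4+11 day arrays the sum of the 14 was 28943, 17261 and 19752 in replicate order, against 48414 and 54009 on the feeder arrays. Of these markers, 8 were lower and 1 was higher in undifferentiated than in feeder cells, and 2 rose and 2 fell in 4+11 day over undifferentiated cells. The part of feeder RNA in these values was not tested. Over the 11 arrays the genes most like Cdkn1a (98067_at) were Kdelr2 (r = 0.931), a receptor that returns proteins to the endoplasmic reticulum, Tmem37 (r = 0.930) and Ndel1 (r = 0.929).

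Cdkn1b, whose protein p27 is controlled largely by its breakdown, was at the low end of the array's range. At 100278_at all 11 values lay between 3.31 and 24.8, below the filter, and the probe set was not tested. At 161010_r_at (gene at chr6:134920401-134925525) the values were 20.1, 25.2 and 28.8 in undifferentiated cells, 18.8, 32.6 and 42.6 after 4+8 days and 36.4, 24.4 and 32.0 after 4+11 days, against 14.4 and 22.5 in feeder cells. It passed the filter on 2 arrays, and none of its 6 comparisons was called. The groups overlapped except that all 4+11 day arrays exceeded the feeder arrays (0.53 ± 0.28, adjusted p = 0.422). Its 4+11 day minus 4+8 day difference was 0.02 (adjusted p = 0.964), and −0.95 (adjusted p = 0.0167) as deposited, where the median of all probe sets was −0.56. Values as deposited also put 4+8 day over undifferentiated cells by 1.36 (adjusted p = 0.00117), where that median was 0.97. The probe sets of Cdkn1b correlated at r = −0.22.

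Within the INK4 family, Cdkn2b set the 4+11 day cells apart. Its probe set 101900_at (gene at chr4:89306289-89311032) measured 150.3, 139 and 102 in undifferentiated cells, 57.6, 24.8 and 117 after 4+8 days and 493, 339 and 684 after 4+11 days, against 256 and 191 in feeder cells. All 4+11 day values exceeded every other array, and all 4+8 day values lay below the feeder ones. Cdkn2b rose 7.42-fold in 4+11 day over 4+8 day cells (log2 2.89 ± 0.43, adjusted p = 0.00291), which held in all 14 alternatives. Over undifferentiated cells it rose 3.58-fold (log2 1.84 ± 0.43, adjusted p = 0.0159). Blocking on the fluidics run gave 1.67 (adjusted p = 0.00217), and the values inside runs 1 and 2 were 1.70 and 1.65.

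The call of 4+11 day against undifferentiated cells held in 12 of 16 alternatives. Its adjusted p was 0.0658 without undifferentiated replicate 9, 0.0562 without 4+11 day replicate 4, 0.0582 without 4+11 day replicate 12 and 0.163 without both arrays of another wash protocol. In 4+8 day cells, Cdkn2b was 3.46-fold lower than in feeder cells (log2 −1.79 ± 0.48, adjusted p = 0.021), and the call was lost without feeder replicate 6 (0.132) or 10 (0.0836). Its difference of −1.05 ± 0.43 from undifferentiated cells did not pass (adjusted p = 0.0773). Without 4+8 day replicate 3 it was −1.52 (adjusted p = 0.0116). The excess of 4+11 day cells over feeder cells was 1.10 ± 0.48 (adjusted p = 0.301), and with the run as a block 0.86 (adjusted p = 0.0337).

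Macrophage markers varied widely between replicates, and within each of the 4 groups Cdkn2b had the same order over replicates as their sum. The sum over 8 such markers was 6944, 851 and 12327 on the 4+11 day arrays in replicate order, 2682, 173 and 5962 on the 4+8 day arrays, and 171 to 544 in undifferentiated cells, against 951 and 475 in feeder cells. Across stages the order did not carry over, since 4+11 day replicate 8 had 339 for Cdkn2b at a marker sum of 851, and 4+8 day replicate 3 had 117 at a sum of 5962. Within each differentiated stage, the endoderm sum had the order of Cdkn2b too (2720, 1502 and 5241, then 4086, 1333 and 6511). Apoe was the largest part of each of these sums (1727, 738 and 4381, then 3165, 798 and 5911). The other tested genes of that list did not have this order at both stages, Sox17 among them (131, 144 and 83.8, then 41.4, 12.5 and 40.7). The part of macrophages or endoderm cells in the Cdkn2b values was not tested. The genes most like it over the 11 arrays were Rnf149 (r = 0.957), Abca1 (r = 0.949), a cholesterol exporter, and Zfp53 (r = 0.933).

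Cdkn2a, which shares the locus and encodes p16 and the p53 activator p19Arf, was not called in any comparison. The files do not say which of its transcripts the probe set 98789_at reads (gene at chr4:89274473-89294619). It measured 50.4, 56.6 and 54.1 in undifferentiated cells, 224, 8.40 and 134 after 4+8 days and 89.8, 58.3 and 152 after 4+11 days, against 60.1 and 45.1 in feeder cells. The undifferentiated arrays lay close together, and the differentiated ones were spread over a wide range, with 4+8 day replicate 2 below the filter. All 4+11 day arrays exceeded the undifferentiated ones (0.70 ± 0.76, adjusted p = 0.57).

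Without 4+8 day replicate 2, Cdkn2a was higher in 4+8 day than in undifferentiated cells by 1.53 (adjusted p = 0.00796) and than in feeder cells by 1.57 (adjusted p = 0.0157). That replicate also had the lowest sum of macrophage markers at its stage (173), and the 4+11 day replicate with least Cdkn2a, replicate 8, had the lowest at its own (851). Both arrays also had the lowest fibroblast, heart muscle, endoderm and blood sums of their stages, and the highest neural progenitor sums (6625 and 7765). Of the 8 macrophage markers, 0 were called in 4+8 day and 3 rose in 4+11 day cells over undifferentiated ones. Their part in the Cdkn2a values was not tested. Cdkn2a and Cdkn2b correlated at r = 0.39 over the 11 arrays.

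Cdkn2c, a CDK4 and CDK6 inhibitor that is active in many embryonic tissues, was low in undifferentiated cells and highest in the feeder fibroblasts. Its probe set 160638_at (gene at chr4:109660876-109666756) measured 79.8, 66.9 and 74.2 in undifferentiated cells, 111, 139.7 and 128 after 4+8 days and 104, 101 and 95.1 after 4+11 days, against 144 and 166 in feeder cells. No group overlapped another, in the order undifferentiated, 4+11 days, 4+8 days, feeder. As deposited, the 4+8 day values (157, 202 and 175) overlapped the feeder values (149 and 159), where the median difference of all probe sets was 0.55. Cdkn2c rose 1.62-fold in 4+8 day over undifferentiated cells (log2 0.70 ± 0.16, adjusted p = 0.00848), in all 14 alternatives. Undifferentiated cells had 1.97-fold less than feeder cells (log2 −0.98 ± 0.18, adjusted p = 0.00574), at −0.89 and −1.06 within runs 1 and 2. That call was lost without feeder replicate 10 (adjusted p = 0.0642).

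None of the neighbours in this order passed the test. In 4+11 day cells Cdkn2c differed from undifferentiated cells by 0.40 ± 0.16 (adjusted p = 0.123) and from 4+8 day cells by −0.30 ± 0.16 (adjusted p = 0.208). In 4+8 day cells it differed from feeder cells by −0.28 ± 0.18 (adjusted p = 0.281). The 4+11 day and feeder cells, which are not neighbours, differed by −0.58 ± 0.18 (adjusted p = 0.138). The sum of the 14 fibroblast markers was highest on the feeder arrays as well (48414 and 54009). The single markers did not all share this, with 1 called higher and 6 lower in 4+8 day than in feeder cells. Among the 4+8 day arrays, replicate 2 had the most Cdkn2c and the lowest fibroblast sum (13483, against 28348 and 46749). The part of fibroblast RNA in these values was not tested. The genes most like Cdkn2c were Lamb2 (r = 0.967), a laminin chain, Clic4 (r = 0.954) and Eogt (r = 0.935).

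**Figure D3:**
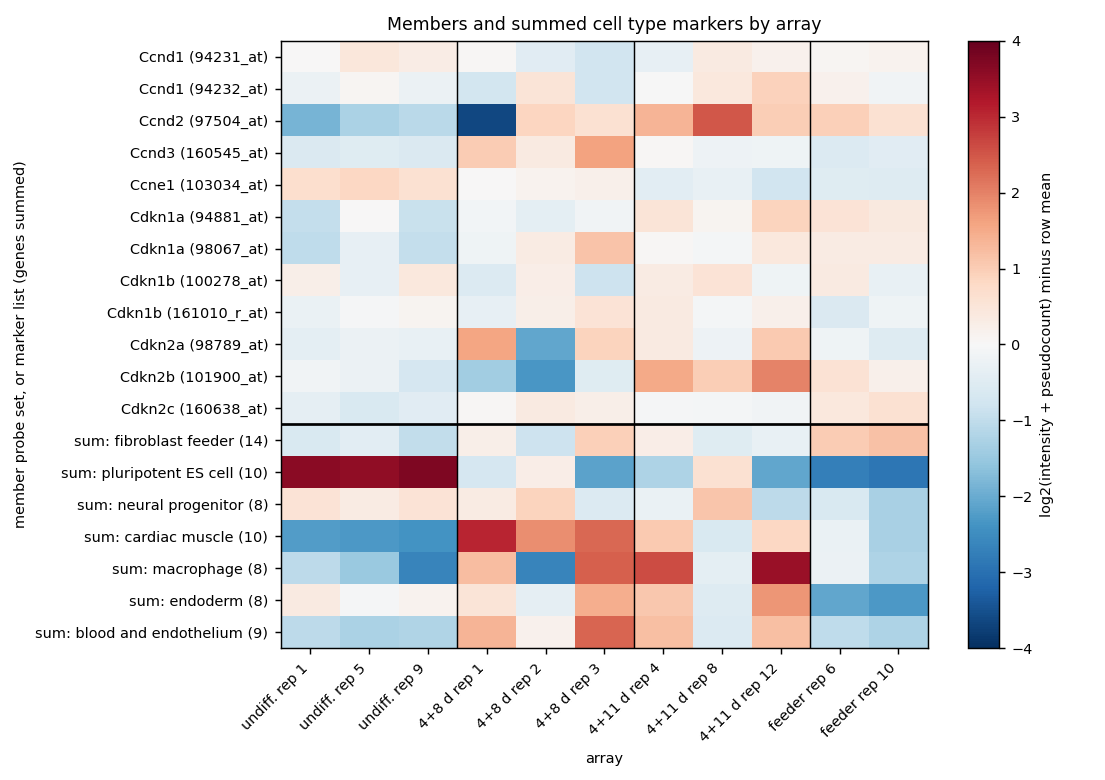
Each row is a member probe set, or the sum of a cell type marker list with its number of genes, as log2(intensity + 10) minus the row mean on each of the 11 arrays (colour limits −4 and 4). Pluripotency markers are high on the 3 undifferentiated arrays. The rows of the other marker lists, macrophage and blood among them, vary between replicates of the 4+8 and 4+11 day groups, as Cdkn2a and Cdkn2b do.

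Against the feeder fibroblasts, undifferentiated cells had more Ccne1 and less Cdkn1a and Cdkn2c. These were 1 higher and 2 lower of the 11 probe sets, where 20.9% of all were called (10.6% higher, 10.3% lower). As deposited 0 were higher and 3 lower. With the fluidics run as a block the count was 6, with Ccnd2, Cdkn2b (−0.82, adjusted p = 0.00849) and the second Cdkn1a probe set (−1.11, adjusted p = 0.0158) also lower. Without feeder replicate 10 the count was 1, Ccne1, and without feeder replicate 6 it was 2. Groups did not overlap for 6 of 12 member probe sets, against 61.7% of all.

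In 4+8 day cells, Ccnd3 (1.51 ± 0.31, adjusted p = 0.00707) and Ccne1 (0.63 ± 0.20, adjusted p = 0.0366) were higher and Cdkn2b lower than in feeder cells, 2 and 1 of 11 against 27.6% of all (12.5% higher, 15% lower). As deposited 3 were higher and 1 lower. Without feeder replicate 6 or 10 the count was 0. For Ccnd3 the adjusted p was then 0.0533 and 0.0528, and for Ccne1 0.144 and 0.173. Ccne1 was also lost without 4+8 day replicate 3 (0.0572). Groups did not overlap for 6 of 12, against 51.1% of all.

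No member was called between 4+11 day and feeder cells, where limma called 3.14% of all probe sets (1.23% higher, 1.91% lower). At an unadjusted p below 0.05 there were 2, Cdkn2b higher and Cdkn2c lower. Array quality weights gave 4 calls and the run as a block 1. Ccne1 differed by 0.02 ± 0.20 (adjusted p = 0.988, 95% interval −0.42 to 0.45). Groups did not overlap for 5 of 12 member probe sets, against 39.5% of all.

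**Figure D4:**
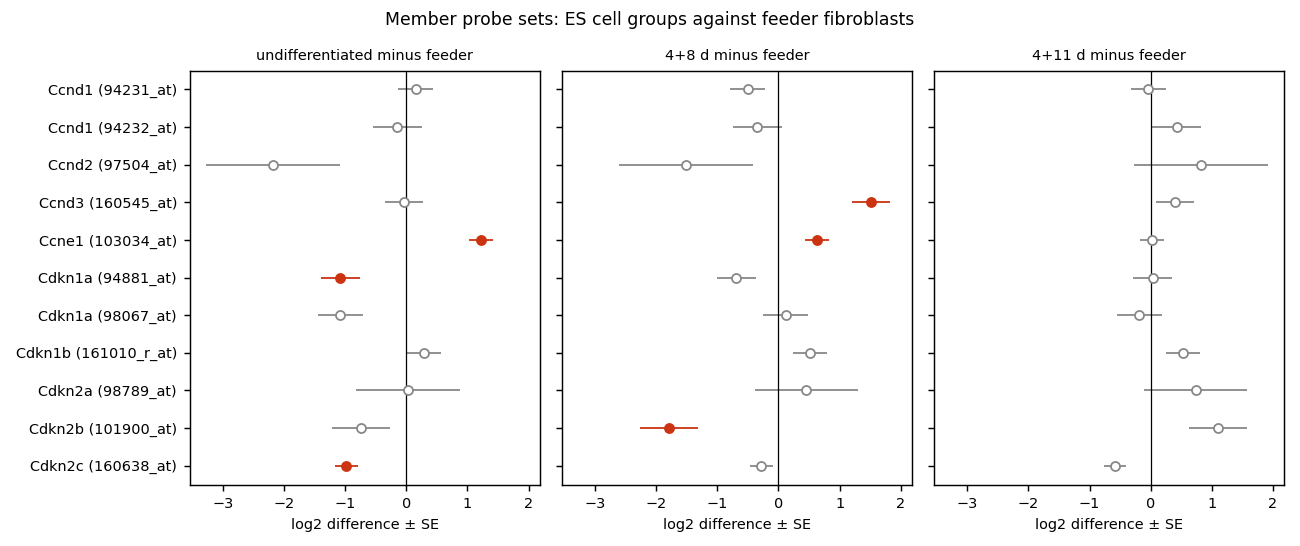
Log2 difference (± SE) of each tested member probe set in undifferentiated, 4+8 day and 4+11 day cells, each minus feeder fibroblasts. Filled red points have an adjusted p below 0.05. Filled points number 3 in the first panel, 3 in the second and 0 in the third.

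The rest of the G1 to S pathway was described from lists of genes by role. Their counts stand beside the shares of all tested probe sets, of which 17.3% rose and 19.9% fell after 4+8 days and 9.38% rose and 9.61% fell after 4+11 days. The members' partners, CDK2, CDK4 and the other tested kinases and cyclins of G1 and S phase, gave no call against undifferentiated cells. Cdk6 was listed but not tested. Of 8 tested genes limma called 0 in 4+8 or in 4+11 day cells against undifferentiated ones, and 1 at each stage had an unadjusted p below 0.05. The list medians were 0.11 and −0.20, beside 0.02 and −0.03 over all probe sets tested. As deposited, 5 rose after 4+8 days, and array quality weights gave 2 falls after 4+11 days. Cdk4, the main partner of the D cyclins, differed by 0.62 ± 0.23 after 4+8 days (adjusted p = 0.0561) and 0.05 ± 0.23 after 4+11 days (adjusted p = 0.906).

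CDK inhibitors outside the members rose with differentiation in 2 of 3 genes at both stages. Cdkn1c (p57), which stops proliferation in many embryonic tissues and is imprinted, averaged 1836 ± 334 after 4+8 days and 1877 ± 527 after 4+11 days, against 311 ± 89.9 in undifferentiated cells (SD, n = 3 each). Its log2 differences were 2.55 ± 0.33 (adjusted p = 0.000406) and 2.56 ± 0.33 (adjusted p = 0.00108), and both held in all alternatives run (14 and 16). Cdkn2d (p19), of the INK4 family, rose by 1.12 ± 0.25 (adjusted p = 0.00636) and 0.80 ± 0.25 (adjusted p = 0.0475), the second in 7 of 16 alternatives. That second call was lost without any 1 of the arrays of its groups (adjusted p up to 0.151).

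Downstream of the kinases, S phase genes that E2F factors switch on fell in part at both stages. After 4+8 days 10 of 16 fell and 1 rose, and after 4+11 days 9 fell and 0 rose, with medians of −1.09 and −0.97. The largest falls after 4+8 days were those of Pola1 (−1.84 ± 0.28), a subunit of DNA polymerase alpha, Cdc6 (−1.54 ± 0.32), a loader of the replicative helicase, and Mcm2 (−1.39 ± 0.35), a subunit of that helicase. After 4+11 days they were those of Mcm5 (−1.64 ± 0.28), Cdc6 (−1.56 ± 0.32), Mcm7 (−1.48 ± 0.40) and the licensing factor Cdt1 (−1.44 ± 0.23). Rrm2 (−1.34 ± 0.44), the small subunit of ribonucleotide reductase, was the next at 4+8 days. The gene that rose was Ung (0.86 ± 0.18, adjusted p = 0.00445), a uracil-DNA glycosylase.

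As deposited, 0 of these genes fell and 2 rose after 4+8 days, with a list median of −0.40 beside 0.97 for all probe sets. After 4+11 days the count of 9 was 3 as deposited, 9 with the run as a block and 0 without the arrays of another wash protocol. It was 5 without undifferentiated replicate 1 and 4 without undifferentiated replicate 9, 4+11 day replicate 4 or 12. The list median was −0.85 with the run as a block.

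Among mitotic cyclins and kinases, 4 of 10 were called lower and 0 higher after 4+8 days (median −1.08) and 6 lower and 0 higher after 4+11 days (median −0.94). Cdk1, the mitotic kinase itself, differed by −0.04 ± 0.26 after 4+8 days (adjusted p = 0.91) and by −0.63 ± 0.26 after 4+11 days (adjusted p = 0.128). Bub1 (−1.75 ± 0.37 and −1.26 ± 0.37), a spindle checkpoint kinase, Aurka (−1.53 ± 0.27 and −1.20 ± 0.27), a kinase of the spindle poles, Ccnf (−1.45 ± 0.22 and −1.43 ± 0.22) and Cdc20 (−1.12 ± 0.33 and −1.54 ± 0.33), an activator of the anaphase ubiquitin ligase, fell at both stages. As deposited, 0 fell after 4+8 days and 1 after 4+11 days. Without the arrays of another wash protocol the count after 4+11 days was 1. It was 2 on leaving out 4+11 day replicate 12 or undifferentiated replicate 1 or 9. It was 3 on leaving out 4+11 day replicate 4 or undifferentiated replicate 5.

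Of the retinoblastoma family and E2F genes, 0 rose and 2 of 6 fell after 4+8 days, and 1 rose and 1 fell after 4+11 days. Tfdp1, the partner of the E2F factors in DNA binding, fell by 2.29 ± 0.21 after 4+8 days (adjusted p = 7.95e-05, all 14 alternatives) and by 0.73 ± 0.21 after 4+11 days (adjusted p = 0.0399, 7 of 16). E2f1 fell by 1.26 ± 0.27 after 4+8 days (adjusted p = 0.00506). Rb1, the retinoblastoma gene, rose by 0.82 ± 0.21 after 4+11 days (adjusted p = 0.0253, 11 of 16). The list's medians were −0.23 and 0.34. As deposited, 3 rose and 1 fell after 4+8 days with a median of 0.75, and with 1 trimmed mean 1 rose and 2 fell with a median of 0.11. Its 2 calls after 4+11 days became 0 on leaving out 4+11 day replicate 8 or 12 or undifferentiated replicate 1 or 5. They became 1 on leaving out 4+11 day replicate 4 or undifferentiated replicate 9.

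The SCF ubiquitin ligase marks p27 for breakdown. Of 7 tested genes listed for this ligase and p27 turnover, 4 fell after 4+8 days and 2 after 4+11 days, and 0 rose (medians −0.57 and −0.31). Skp2 and Rbx1 were listed but were not among those tested. Skp1, the adaptor subunit of the ligase, fell by 1.69 ± 0.36 after 4+8 days (adjusted p = 0.00537, all 14 alternatives), and Btrc, a substrate receptor, by 1.21 ± 0.22. Cks2, a small partner of the kinases, fell by 1.15 ± 0.22 and 0.95 ± 0.22 at the successive stages, and its relative Cks1b by 0.70 ± 0.21 after 4+11 days. After 4+8 days Cks1b was not called (−0.23, adjusted p = 0.407). Cdc34, the conjugating enzyme, fell by 0.57 ± 0.20 after 4+8 days in 4 of 14 alternatives besides the reported fit. As deposited, 2 of the list rose and 1 fell at that stage. The count after 4+11 days was 0 as deposited, without the arrays of another wash protocol, without undifferentiated replicate 1 or 9 and without 4+11 day replicate 4 or 12. It was 1 without undifferentiated replicate 5.

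Cdkn1a is a textbook target of p53, and 12 other genes of the p53 pathway were tested, with p53 itself (Trp53) not among them. After 4+8 days 1 rose and 2 fell, where 37.2% of all probe sets were called, and after 4+11 days 2 rose and 0 fell, where 19% were called. The medians were 0.51 and 0.56. Mdm2, the inhibitor of p53 (−1.90 ± 0.44, adjusted p = 0.00789), and Gadd45a (−1.66 ± 0.31, adjusted p = 0.00261) fell after 4+8 days. Sesn1 rose at both stages (1.03 ± 0.31 and 1.20 ± 0.31), and Ccng1 after 4+11 days (1.01 ± 0.28, adjusted p = 0.0346). The count after 4+11 days was 0 if undifferentiated replicate 1 or 9 or 4+11 day replicate 4 or 12 was left out, and 8 with the run as a block (6 higher, 2 lower). As deposited, 8 rose and 1 fell after 4+8 days. The count of 3 calls after 4+8 days was 2 without undifferentiated replicate 9 or 4+8 day replicate 3, and 6 without 4+8 day replicate 2.

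Upstream of the D cyclins, Myc family and mitogen-induced factors fell in 5 of 14 cases and rose in 1 after 4+8 days, and fell in 1 after 4+11 days (medians −0.37 and −0.17). Mycn, a Myc gene of embryonic cells, fell by 1.5 ± 0.49 after 4+8 days (adjusted p = 0.0345, 6 of 14 alternatives) and by 2.85 ± 0.49 after 4+11 days (adjusted p = 0.00402, 15 of 16). Max, the dimer partner of Myc proteins, fell by 1.71 ± 0.20 after 4+8 days (adjusted p = 0.000255, all 14). Fosl1 (−2.28 ± 0.47) and Junb (−1.55 ± 0.45), subunits of AP-1, also fell at that stage. The 4+8 day count of 6 was 3 without undifferentiated replicate 1, 2 without undifferentiated replicate 9 or 4+8 day replicate 1, and 3 without 4+8 day replicate 3. As deposited 5 rose and 1 fell.

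Polycomb proteins, which repress the Cdkn2a and Cdkn2b locus in many cells, moved in both directions. After 4+8 days 2 of 11 rose and 4 fell, where 17.3% of all probe sets rose and 19.9% fell. After 4+11 days 2 rose and 2 fell, where 9.38% of all rose and 9.61% fell (list medians −0.18 and −0.26). Bmi1, a subunit of Polycomb complex PRC1 known for repression of this locus, rose by 1.12 ± 0.30 after 4+8 days (adjusted p = 0.0147, and 0.057 without undifferentiated replicate 5) and by 1.83 ± 0.30 after 4+11 days (adjusted p = 0.0034, all 16 alternatives). Phc2 rose by 1.74 ± 0.25 and 1.85 ± 0.25, and its relative Phc1 fell by 2.25 ± 0.29 and 2.60 ± 0.29. Eed, of the complex that methylates histone H3, fell by 2.37 ± 0.19 and 1.58 ± 0.19, and its partner Suz12 by 1.96 ± 0.25 after 4+8 days. As deposited, 6 rose and 3 fell after 4+8 days.

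**Figure D5:**
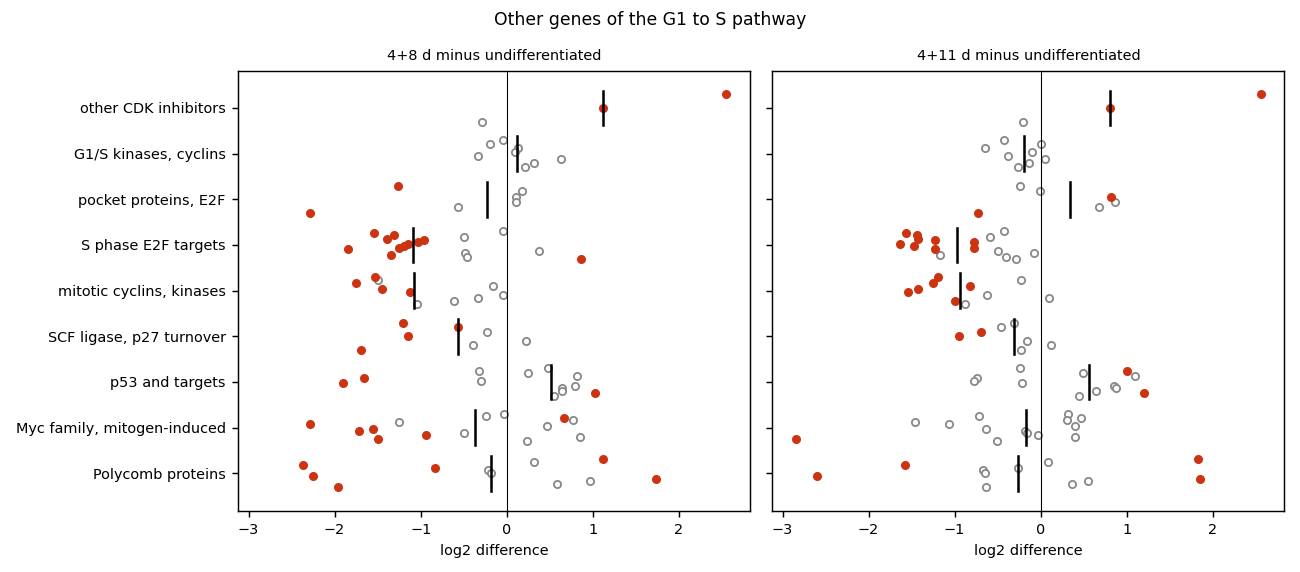
Log2 difference of each tested gene of the 9 lists in 4+8 day minus undifferentiated cells (left) and 4+11 day minus undifferentiated cells (right). Filled red points have an adjusted p below 0.05, open points do not, and the black bar is the list's median. Most filled points of the S phase, mitotic and SCF lists lie left of 0, and those of the other CDK inhibitors lie right of 0.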

How the data were processed

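RNA was measured on 11 arrays, 1 per sample, with groups read from the sample titles. The source name of feeder replicate 10 is the ES line, and its title was used. Per the experiment files the authors deposited, the chip was the MG_U74Av2. The deposited values are probe set intensity on a linear scale, made by software that the labels do not name. By these values the 4+8 day arrays had a common trimmed mean (2% cut at each end) of about 200.1, and the others 86.2 to 160.2. Arrays were quantile-normalised, and log2(intensity + 10) was tested, 10 being near the 20th percentile, so folds of dim genes are understated. The 66 control probe sets were left out, and 8940 of 12422 others, above 33.4 (the 40th percentile) on at least 2 arrays, were fitted with limma 3.58.1 in R 4.3.3 (lmFit, eBayes). All 11 arrays entered with the 4 groups as the only factor (7 residual degrees of freedom), tests were two-sided and p-values were Benjamini-Hochberg adjusted over all 8940. The number of arrays limits the precision. There were 0 identical columns.

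Of the 12422 probe sets, 10833 had 1 symbol, 396 several and 1193 were unnamed here. Where several probe sets read 1 gene, a list used the tested one of highest mean. Another wash protocol was used for undifferentiated replicate 9 and for 4+11 day replicate 12. Feeder replicate 6, 4+11 day replicate 4 and undifferentiated replicates 1 and 5 were in fluidics run 1. Feeder replicate 10, 4+11 day replicate 8 and undifferentiated replicate 9 were in run 2. Run 3 was 4+11 day replicate 12 alone, which adds nothing to a fit with the run as a block.

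The members and all lists were chosen with earlier results of these data known. All member probe sets are named, and of each list up to 4 called genes per comparison with the largest log2 difference. Some values outside this rule are given too, among them those of Ung and Bmi1 after 4+8 days and of Cdk4 and Cdk1. Alternatives were other scalings, pseudocounts and filters, fits of fewer arrays, array weights and leaving out arrays. Likeness is Pearson's r of log2 values over 11 arrays, which share groups and sessions. The script was tested on simulated data.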

Additional observations from a re-analysis of the deposited data

Results flagged for a closer look

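For 3 members the change from undifferentiated cells differed between the differentiated stages, by the test of 4+11 minus 4+8 day cells itself. Ccnd3 measured 1.11 lower on the log2 scale after 4+11 than after 4+8 days (−1.11, adjusted p = 0.0198). Ccne1 fell by a further 0.62 (−0.62, adjusted p = 0.0307). Cdkn2b differed from undifferentiated cells by 1.84 after 4+11 days (adjusted p = 0.0159) and by −1.05 after 4+8 days, which did not pass (adjusted p = 0.0773) and was 0.05 with values as deposited. The stages differed by 2.89 (adjusted p = 0.00291). In all 3 cases the stages also differed in scan session and chip lot, so stage and session cannot be told apart.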

How the results depend on the processing

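Of 957 member values under alternatives, 819 kept their direction and side of the threshold, 40 were called in neither fit and changed sign (11 of them with values as deposited), 49 lost their call, 47 gained one and 2 reversed with a call in one of the fits. Both of these came with values as deposited: Ccne1 in 4+8 day minus undifferentiated cells (0.15) and Cdkn1b 161010_r_at in 4+11 minus 4+8 day cells (−0.95). Among 1953 alternative values of called list genes, 1466 held, 482 lost their call and 5 reversed, all as deposited: Rb1 (4+11 minus 4+8 days, −0.11), Myc (0.12), Cdc34 (0.11) and Ezh1 (0.35) in 4+8 day minus undifferentiated cells, and Btrc (4+8 days minus feeder, 0.0098). As deposited, the median of all probe sets was 0.97 in 4+8 day minus undifferentiated, 0.28 in 4+11 day minus undifferentiated, −0.56 in 4+11 minus 4+8 day, −0.34 in undifferentiated minus feeder and 0.55 in 4+8 day minus feeder cells. The share of higher among all calls was then 92.7, 81.9, 6.46, 16.8 and 84.1%, against 46.5, 49.4, 53, 50.8 and 45.5% as reported, and with 1 trimmed mean 60.5, 50, 33.3, 50.6 and 62.4%. For 4+11 day minus feeder cells it was 25.2% as deposited, 39.1% as reported and 41.3% with 1 trimmed mean.

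Counts of called members changed as follows. In 4+8 day minus undifferentiated cells the count of 4 was 2 with those arrays alone and 2 without the other wash protocol. In 4+11 day minus undifferentiated cells the count of 3 was 6 as deposited, 5 with those arrays alone, 1 without the other wash protocol, 8 with array weights and 6 without the 4+8 day arrays. In 4+11 minus 4+8 day cells the count of 3 was 5 as deposited, 1 with those arrays alone and 1 without the other wash protocol. In undifferentiated minus feeder cells the count of 3 was 6 with those arrays alone, 6 with the run as a block, 5 with array weights and 5 without the 4+8 day arrays. In 4+8 day minus feeder cells the count of 3 was 0 with those arrays alone, and in 4+11 day minus feeder cells the count of 0 was 4 with array weights and 1 with blocking on the run. Leaving out 1 array at a time gave counts of 2 to 5, 1 to 3, 1 to 5, 1 to 3, 0 to 4 and 0 to 0 in these 6 comparisons. Where an arm was left with 1 feeder array, that array was assumed to vary like the other groups. The causes were not tested. No paired analysis was possible because the groups compared share fewer than 2 replicate numbers. Dim signal limits Cdkn1b, whose values lay near or below the filter.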
